A study of Mus musculus with 2 samples.

Results

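The cytosolic heat shock proteins described here are 10 genes, Hspa1a, Hspa1b, Hspa8, Hsph1, Hsp90aa1, Hsp90ab1, Hspb1, Hspb8, Dnajb1 and Bag3, out of 20823 genes with counts. They were chosen by name, and each was matched to its Ensembl identifier. The 10 genes all had at least 20 counts in the 2 libraries together, the minimum set for a fold. Messenger RNA was sequenced from liver hepatocytes of C57BL6J mice aged 8 weeks, in 1 library taken 24 h after intraperitoneal acetaminophen (APAP) at 300 mg/kg and 1 control library given no agent. Livers of both groups were perfused with collagenase, cells with the endothelial protein CD31 or the leukocyte protein CD45 were removed by flow cytometry, and 20000 hepatocytes with high surface Cxcr2, a chemokine receptor, were collected per library. The sources used here give no number of animals per library. The APAP library held 51009898 counts and the control library 52419864.

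Heat shock proteins are chaperones that hold, refold or hand over proteins that have lost their shape. In the cytosol HSP70 proteins bind short exposed stretches of a client under the control of J proteins and nucleotide exchange factors, HSP90 proteins act later on a client that is already partly folded, and small heat shock proteins hold unfolded clients without using ATP. Heat, oxidants and reactive chemicals free the transcription factor HSF1, which binds inverted repeats of GAA in promoters and raises the transcription of these genes. Some members, such as Hspa8 and Hsp90ab1, are made at a high level without stress. In hepatocytes, APAP is turned by cytochrome P450 enzymes into a reactive product that binds protein thiols.

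The HSF1 repeats in the promoters are shown first, because HSF1 acts through them in the textbook heat shock response. Windows of 250 bases before the transcription start were taken from RefSeq (GRCm38.p6) for 7 of the 10 genes, as 9 windows, since Hsph1 and Dnajb1 each have 2 annotated starts. No window was available for Hspa8, Hsp90aa1 and Hsp90ab1. The 4 sequences below belong to the inducible pair Hspa1a and Hspa1b and, for contrast, to Hsph1 and Hspb1. They are printed 5′ to 3′ on the strand of the gene, and capitals mark every match to GAANNTTC, to TTCNNGAA or, with at most 1 mismatch in its fixed letters, to GAANNTTCNNGAA on either strand, where the matches may overlap.
Hspa1a, chr17:34972157-34972406, minus strand: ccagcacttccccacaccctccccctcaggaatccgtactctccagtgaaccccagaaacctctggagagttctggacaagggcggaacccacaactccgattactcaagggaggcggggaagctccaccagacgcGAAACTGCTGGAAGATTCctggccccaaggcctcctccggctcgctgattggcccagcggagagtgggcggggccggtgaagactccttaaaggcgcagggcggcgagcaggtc
Hspa1b, chr17:34959239-34959488, minus strand: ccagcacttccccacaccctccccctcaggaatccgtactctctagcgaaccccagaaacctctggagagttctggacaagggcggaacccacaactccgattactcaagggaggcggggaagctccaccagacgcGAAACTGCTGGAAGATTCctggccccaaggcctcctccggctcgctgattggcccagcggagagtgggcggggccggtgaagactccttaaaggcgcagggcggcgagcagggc
Hsph1, chr5:149636337-149636586, minus strand: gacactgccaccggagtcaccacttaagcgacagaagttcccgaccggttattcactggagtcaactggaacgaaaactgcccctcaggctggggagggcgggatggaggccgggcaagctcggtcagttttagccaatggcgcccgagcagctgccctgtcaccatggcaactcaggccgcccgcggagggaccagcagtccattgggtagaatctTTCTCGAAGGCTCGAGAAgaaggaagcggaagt
Hspb1, chr5:135887669-135887918, plus strand: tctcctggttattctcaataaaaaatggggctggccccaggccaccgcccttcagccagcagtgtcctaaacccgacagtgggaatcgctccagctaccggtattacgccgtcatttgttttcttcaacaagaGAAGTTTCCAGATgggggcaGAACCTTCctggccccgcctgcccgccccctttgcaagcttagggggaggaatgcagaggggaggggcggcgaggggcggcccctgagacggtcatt
In Hspa1a and Hspa1b the same block of repeats began 114 bases before the start, and in Hspb1 it began 117 bases before it. The block of Hsph1 began 33 bases before the start of the printed window and 54 bases before the other annotated start. GAANNTTCNNGAA without a mismatch was found in 0 of the 9 windows and in 0.466% of 32851 windows of all genes. With at most 1 mismatch it was found in 5 of the 9 windows, those of 4 of the 7 genes (Hspa1a, Hspa1b, Hspb1 and both of Hsph1), and in 6.08% of all windows. These 5 windows are not independent, since the 2 of Hsph1 overlap and those of Hspa1a and Hspa1b are nearly identical. GAANNTTC was found in 3 of the 9 windows and in 6.69% of all windows, and TTCNNGAA in 2 of the 9, both of Hsph1, and in 7.17% of all. None of these 3 patterns was found in the windows of Hspb8, Bag3 and Dnajb1, which says only that these letters are not there. The windows of Hspa1a and Hspa1b were identical at 247 of 250 bases. Counted from 1 at the 5′ end, and with the Hspa1a base first and the Hspa1b base last, they differed by C44T, T47C and T249G, none of which lies in the capitals.

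The comparison asks how the heat shock transcripts of the sorted hepatocytes stood 24 h after APAP against those of an untreated liver. The inducible HSP70 genes Hspa1a and Hspa1b were the only members that were at least 2-fold lower with APAP, and no member was at least 2-fold higher. The other 8 genes, among them the constitutive Hspa8 and Hsp90ab1, lay within 1.5-fold of the control library. Together the 10 genes stood at 1914 CPM (counts per 1000000 counts of the scaled total) with APAP and 2292 CPM in control. A gene is called lower or higher here if its fold, APAP over control, was at least 2 in that direction, with a 95% counting interval that excluded 1. By this rule 7.09% of the 14096 genes with at least 20 counts were lower and 10.7% were higher, against 2 and 0 of the 10 heat shock genes. With the libraries scaled by total counts, 4.44% of the genes tested were lower and 17.3% higher. Folds within 1.5 in either direction were found for 66.1% of the genes tested.

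**Figure D1:**
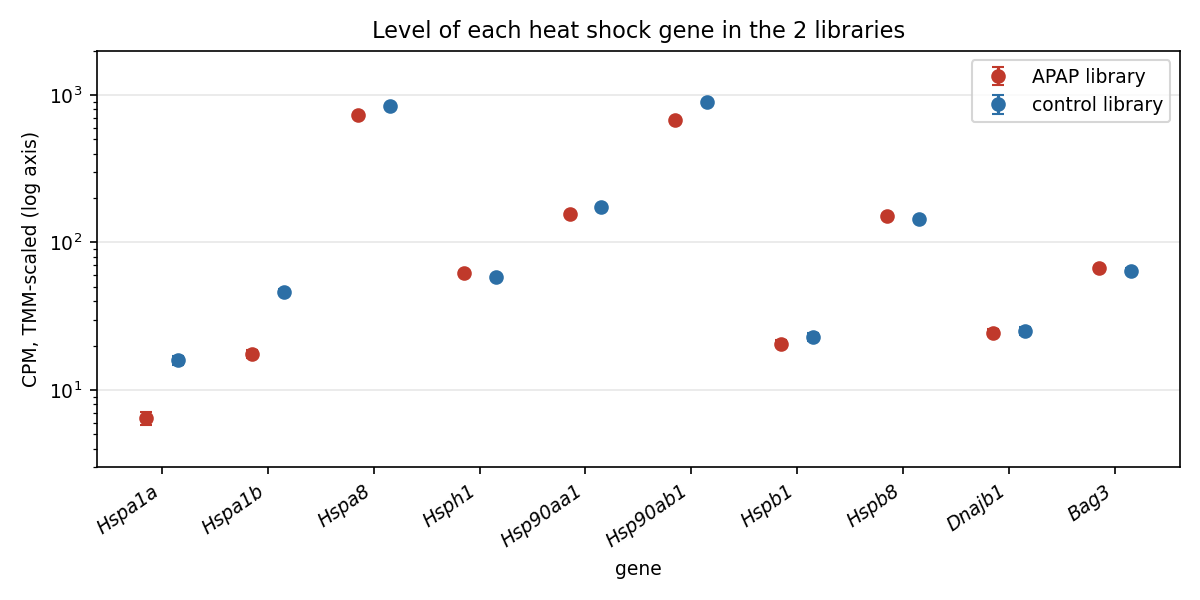
The level of each of the 10 heat shock genes in the APAP library (red) and the control library (blue), in CPM on a log axis, with the 95% counting interval as the bar. Hspa1a stood at 6.44 CPM with APAP and 15.8 CPM in control, and Hspa1b at 17.6 CPM with APAP and 46.4 CPM in control, while the points of the other genes lie close to each other.

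Each group held 1 library, so there was no replicate check and no test, and an interval here covers the counting error of this pair of libraries alone and says nothing of the conditions. The scaling of the libraries matters for genes this close to 1. By total counts in place of the trimmed mean of M-values (TMM), every log2 fold was higher by 0.35, the median of all genes tested moved to 0.37 from 0.02, and 7 of the 10 members lay above 1 in place of 3.

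Hspa1a and Hspa1b encode near-identical inducible HSP70 proteins, which most unstressed cells hold at a low level. Hspa1b had 1012 counts in the APAP library, against 2160 in the control library, and was 2.64-fold lower (95% counting interval 2.45 to 2.85). Hspa1a had 370 counts in the APAP library, against 737 in the control library, and was 2.46-fold lower (2.17 to 2.80). The APAP library was thus the lower of the pair for both copies, by nearly the same factor. Among all genes tested, the log2 folds of Hspa1b and Hspa1a stood at percentiles 4.33 and 4.87. With total counts Hspa1b was 2.08-fold lower and Hspa1a 1.94-fold lower, so that Hspa1a no longer met the 2-fold rule.

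Reads cannot always be told apart between these copies. Of the 100-base windows of the longest coding transcript, 56.5% in Hspa1a and 49.9% in Hspa1b occurred unchanged in a transcript of another gene, chiefly in each other. The sources used here give neither the read length nor how reads that map to several places were treated. Gm20481, annotated on the strand opposite to Hspa1a, overlaps it and was not analysed here, and without a stated strand setting its reads cannot be told apart from those of Hspa1a. The sum of both copies does not depend on how reads were split between them. It can still depend on whether shared reads were dropped or given to other genes, which is not known. This sum was 1382 counts in the APAP library and 2897 in the control library, or 24.0 CPM with APAP and 62.3 CPM in control. It was 2.59-fold lower in the APAP library (2.43 to 2.76), or 2.04-fold lower with total counts. There were 36.6 counts of Hspa1a per 100 counts of Hspa1b in the APAP library and 34.1 in the control library. The ratio of these, 1.07 (0.924 to 1.24), had an interval that held 1, so no shift between the copies was detectable. Depending on how reads shared by the copies were split, such a shift could be hidden in these counts.

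Hspa8 encodes the constitutive HSP70 of the cytosol, which also strips clathrin from vesicles and feeds chaperone-mediated autophagy. It had 42100 counts in the APAP library, against 39272 in the control library, which is 732 CPM with APAP and 844 CPM in control. The ratio was 0.867 (0.855 to 0.879), and it was 1.10 with total counts, so that the direction depends on the scaling. Within a library no scaling is needed: there were 3.28 counts of Hspa1a plus Hspa1b per 100 counts of Hspa8 in the APAP library (3.11 to 3.46) and 7.38 in the control library (7.10 to 7.66). This ratio was 2.25-fold lower in the APAP library (2.10 to 2.40). The transcript of Hspa8 has processed copies in the genome, and 63.4% of its 100-base windows occurred in transcripts of other genes. Of these copies, Gm15459 had 6693 counts in the APAP library and 6047 in the control library, and Gm8355 had 1568 with APAP and 1404 in control.

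**Figure D2:**
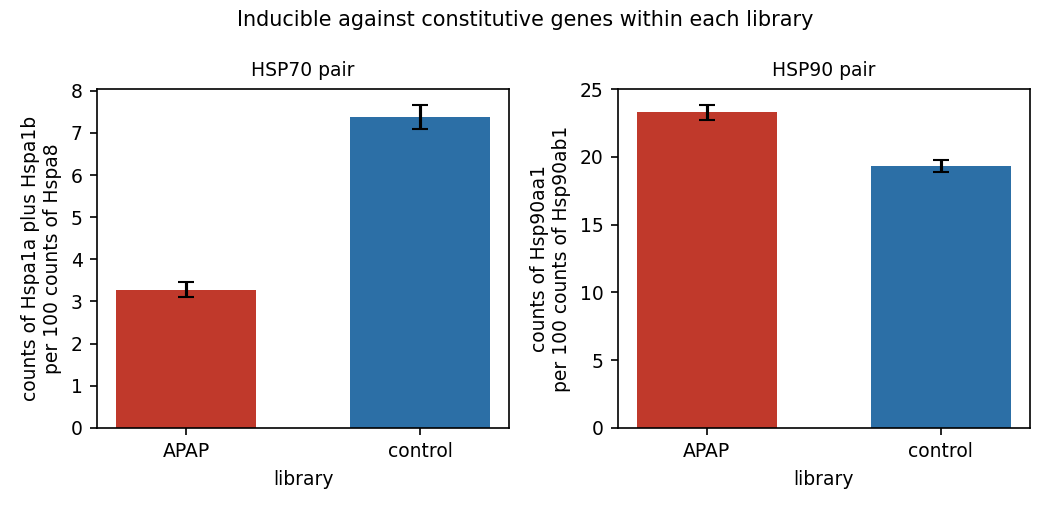
Counts of the inducible gene per 100 counts of the constitutive gene within each library, for HSP70 (left panel) and HSP90 (right panel), with APAP in red and control in blue and 95% counting intervals as bars. The HSP70 value was 3.28 in the APAP library and 7.38 in the control library, and the HSP90 value was 23.3 in the APAP library and 19.3 in the control library.

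The pair of cytosolic HSP90 genes differed in the other direction. Hsp90aa1, the stress-inducible form, had 9020 counts in the APAP library, against 8058 in the control library, or 157 CPM with APAP and 173 CPM in control, a ratio of 0.906 (0.879 to 0.933). Hsp90ab1, the constitutive form, had 38752 counts in the APAP library, against 41730 in the control library, or 674 CPM with APAP and 897 CPM in control, a ratio of 0.751 (0.741 to 0.762). Hsp90ab1 thus lay farthest below 1 of the 8 members that were not called, and with total counts its ratio was 0.954, whereas that of Hsp90aa1 was 1.15. There were 23.3 counts of Hsp90aa1 per 100 counts of Hsp90ab1 in the APAP library (22.7 to 23.8) and 19.3 in the control library (18.9 to 19.8). The ratio of these was 1.21 (1.17 to 1.25), above 1 where that of the HSP70 pair, 0.445 (0.416 to 0.475), was below it. Copies of Hsp90aa1 held 47.5% of its 100-base windows, of which Gm12346 had 1022 counts in the APAP library and 789 in the control library, while no such window of Hsp90ab1 occurred elsewhere.

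The cochaperones of HSP70 lay close to 1. Dnajb1, the J protein that loads clients onto HSP70, had 1404 counts in the APAP library and 1164 in the control library, a ratio of 0.976 (0.902 to 1.06). Hsph1, the HSP110 protein that exchanges the nucleotide of HSP70 and helps to dissolve aggregates, had 3574 counts in the APAP library and 2693 in the control library, a ratio of 1.07 (1.02 to 1.13). Bag3, a nucleotide exchange factor that steers clients of HSP70 to autophagy, had 3845 counts in the APAP library and 2995 in the control library, a ratio of 1.04 (0.990 to 1.09). The intervals of Dnajb1 and Bag3 held 1, so no difference was detectable for them at this depth with TMM scaling. With total counts the ratios of Dnajb1, Hsph1 and Bag3 were 1.24, 1.36 and 1.32, none of which reached 2. No 100-base window of these transcripts occurred in another gene.

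The small heat shock proteins also lay close to 1. Hspb8, which works in a complex with Bag3, had 8759 counts in the APAP library and 6723 in the control library, a ratio of 1.05 (1.02 to 1.09). Hspb1, the mouse HSP25 that also binds actin filaments, had 1182 counts in the APAP library and 1062 in the control library, a ratio of 0.900 (0.828 to 0.979). With total counts these ratios were 1.34 and 1.14. There were 43.9 counts of Bag3 per 100 counts of Hspb8 in the APAP library and 44.5 in the control library, and the interval of the ratio of these, 0.985 (0.930 to 1.04), held 1. Of the 100-base windows of Hspb1, 42.7% occurred in other genes, of which the pseudogene Hsp25-ps1 had 2 counts in the APAP library and 6 in the control library.

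**Figure D3:**
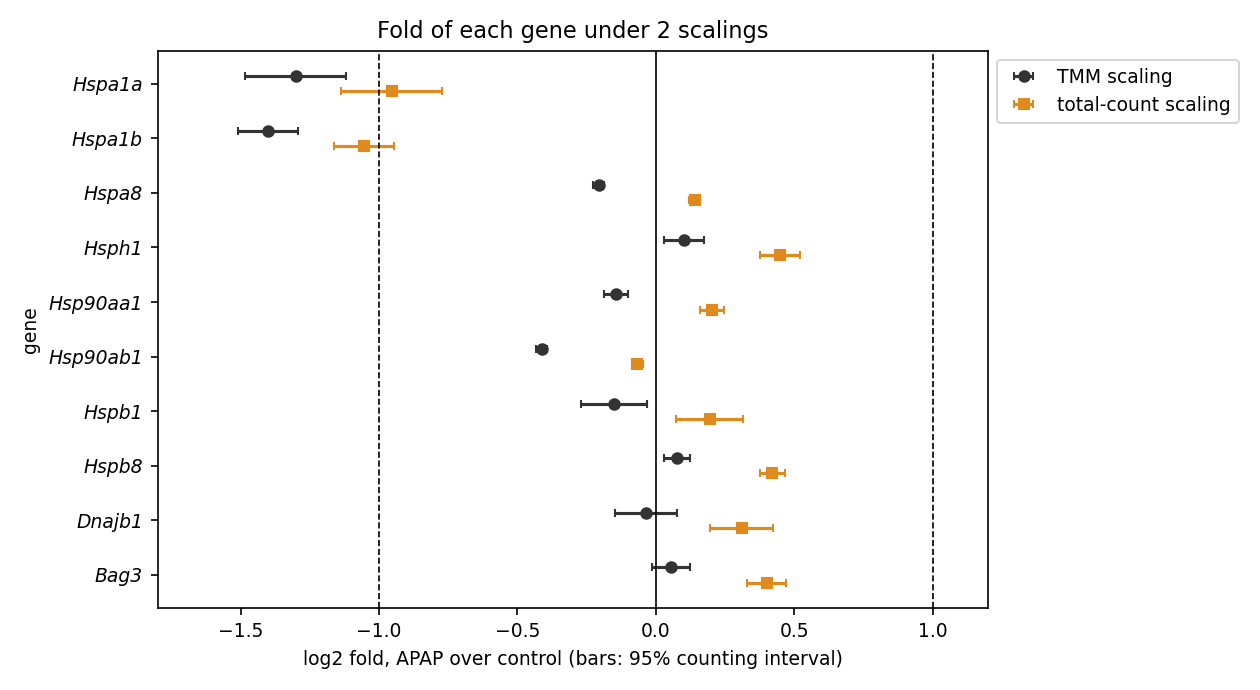
The log2 fold of each heat shock gene, APAP over control, with TMM scaling (black circles) and with total counts (orange squares), and 95% counting intervals as bars; dashed lines mark a fold of 2 in either direction. Hspa1a and Hspa1b lie left of 0 under both scalings, whereas Hspa8, Hsp90aa1, Hspb1 and Dnajb1 lie on different sides of 0.

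Levels can be compared between genes only per length, here as CPM per kilobase of annotated exons. In the APAP library Hsp90ab1 stood highest at 225, followed by Hspa8 at 170.3, Hspb8 at 78.1, Hsp90aa1 at 39.9, Bag3 at 26.1, Hspb1 at 19.9, Hsph1 at 8.56, Dnajb1 at 7.62, Hspa1b at 6.28 and Hspa1a at 2.17. In the control library the order of the first 6 was the same, from Hsp90ab1 at 299 to Hspb1 at 22.1. Below them stood Hspa1b at 16.6, Hsph1 at 7.97, Dnajb1 at 7.81 and Hspa1a at 5.34, so that Hspa1b was above Hsph1 and Dnajb1 in the control library and below both in the APAP library. The counting intervals of Hsph1 and Dnajb1 overlapped in the control library, and those of all other neighbours in either order were apart, with no spread between libraries to set them against. Per kilobase of the longest coding transcript, Hspa8 at 306 stood above Hsp90ab1 at 267 in the APAP library, so the order of these depends on the length used. Hspa8, Hspa1a, Hspa1b, Hsp90aa1 and Hspb1 share many windows with other genes. Their places also depend on how reads that map to several places were treated, which is not given.

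Hspa1b, with the largest log2 fold in size, was set beside the genes most like it in level and fold, by distance in log2 CPM over the 2 libraries. These were Bach1, a repressor that senses haem, Rap2a, a small GTPase, Rnf43, a ubiquitin ligase that removes WNT receptors, and the pseudogene Adh6-ps1. Their distances ran from 0.17 to 0.25, and they were 2.33-fold, 2.25-fold, 3.19-fold and 3.36-fold lower in the APAP library in this order. With 2 libraries the distance measures only that level and fold are close.

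**Figure D4:**
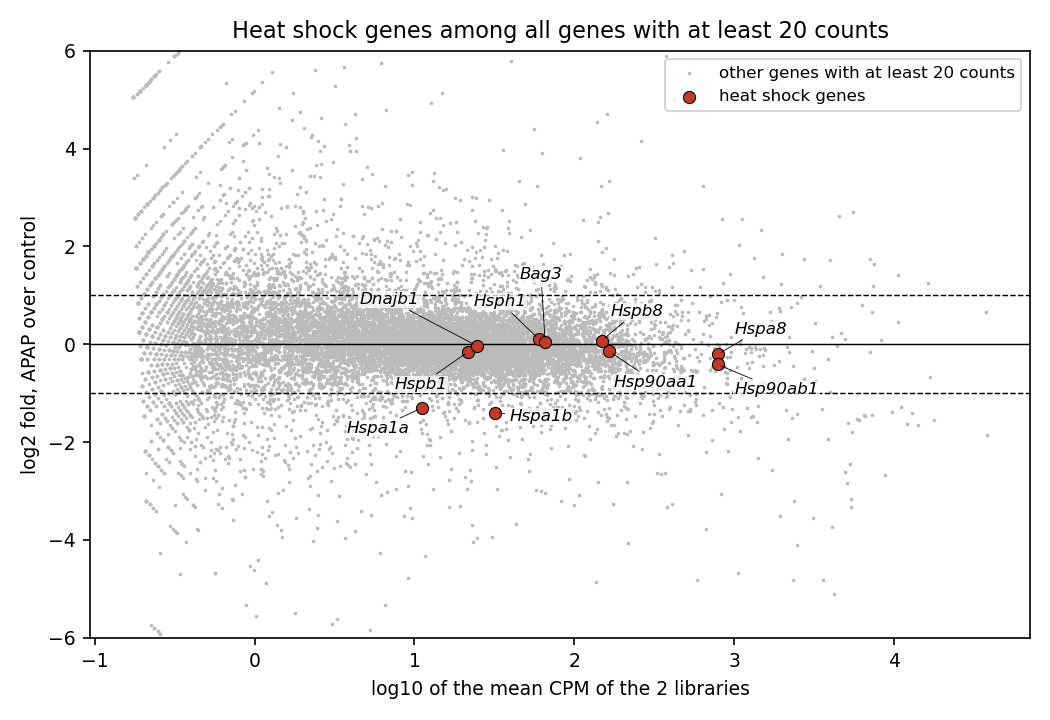
The log2 fold, APAP over control, of all 14096 genes with at least 20 counts (grey) against the log10 of their mean CPM, with the 10 heat shock genes in red and dashed lines at a fold of 2; 55 genes lie beyond the axis. Hspa1a and Hspa1b lie below the lower dashed line, and the other 8 lie in the dense band around 0.

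Of the 6492 genes tested whose mean CPM lay within the range of the 10 members, 4.48% were lower, 4.14% were higher and 78.1% lay within 1.5-fold. Beside these shares stand 2 of the 10 members lower, 0 higher and 8 within 1.5-fold. The median log2 fold of the 10 members was -0.15, or 0.20 with total counts, and that of all genes tested was 0.02, or 0.37 with total counts.

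The other genes of the chaperone system were described from lists, some of whose genes are in more than 1 list. Beside each count of called genes stand the 10.7% higher and 7.09% lower of all genes tested, or 17.3% and 4.44% with total counts. Hsf1, the gene of the factor behind the response, had 702 counts in the APAP library and 603 in the control library, a ratio of 0.942 (0.843 to 1.05). Its relative Hsf2 had a ratio of 0.766, and Hsbp1, which binds HSF1 trimers, one of 0.941. Of the 5 genes with enough counts in the list of HSF1 and its regulators, 1 was higher and 0 lower. It was Hsf2bp, known in mouse for its role in meiotic recombination, with 39 counts in the APAP library and 0 in the control library, at least 10.5-fold higher if the control count is set to a floor of 3. Of 17 other HSF1 targets, 1 met the rule as higher and none as lower (median log2 fold -0.17, or 0.17 with total counts). That gene was Serpinh1, a collagen chaperone of the endoplasmic reticulum known from fibroblasts, with 37 counts in the APAP library and 0 in the control library, at least 9.98-fold higher against this floor. Ubb, a ubiquitin gene, had a ratio of 1.61. With total counts 2 of the 17 other HSF1 targets were higher and 0 lower.

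Of 6 other HSP70 and HSP110 genes with enough counts, 2 were higher and 0 lower. Hspa13, a microsomal HSP70, had 3519 counts in the APAP library and 1180 in the control library and was 2.41-fold higher (2.26 to 2.58), and Hspa12a, with 22 counts in the APAP library and 0 in the control library, was at least 5.93-fold higher with the control count set to that floor. Hspa4, a cytosolic HSP110, had a ratio of 0.859. Among 14 other cytosolic J proteins 1 was higher, Dnajb5 at 2.08-fold (1.65 to 2.63), and 0 were lower. Dnaja1, a main J partner of Hspa8, had a ratio of 0.645 (0.627 to 0.664) at 146 CPM with APAP and 226 CPM in control. None of 6 other BAG and exchange factors and of 4 other small heat shock proteins was called in either direction. With total counts 1 of these small heat shock proteins was higher.

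Of 19 HSP90 and HSP70 cochaperones, 2 were higher and 0 lower (median log2 fold -0.02, or 0.32 with total counts), a share of higher genes close to that of all genes tested. Fkbp5, a glucocorticoid-induced immunophilin that tempers the glucocorticoid receptor on HSP90, had 4348 counts in the APAP library and 766 in the control library and was 4.59-fold higher (4.25 to 4.96). Unc45a, a myosin chaperone that binds HSP90, was 2.19-fold higher (1.98 to 2.42). Fkbp4, the immunophilin that acts against Fkbp5 on the same receptor, had a ratio of 0.934, and Fkbp8 had one of 1.08. In the list of selective autophagy and ubiquitin partners, 1 of 12 was lower and 0 were higher: Gabarapl1, an ATG8 protein of the autophagosome, was 2.55-fold lower at 110.2 CPM with APAP and 281 CPM in control. With total counts 1 of the 12 was lower and 1 was higher.

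Chaperones of the cytosol (TRiC and prefoldin), of mitochondria and of the endoplasmic reticulum gave different pictures. None of the 14 subunits of the TRiC chaperonin and prefoldin was called, with a median log2 fold of 0.10, or 0.45 with total counts, and its most abundant genes Cct5 and Cct8 had ratios of 1.21 and 0.852. Of 14 mitochondrial chaperones and proteases, 1 was lower and 0 higher (median log2 fold -0.12, or 0.22 with total counts). That gene was Grpel2, a nucleotide exchange factor of mitochondrial HSP70, which was 2.19-fold lower and was not called with total counts. The mitochondrial HSP70 gene Hspa9 and the HSP60 gene Hspd1 had ratios of 0.920 and 0.888. In contrast, 13 of 16 chaperones of the endoplasmic reticulum were higher and 0 lower (median log2 fold 1.51, or 1.86 with total counts). Creld2 was 6.05-fold, Sdf2l1 5.84-fold and Manf 4.31-fold higher, and the most abundant, Calr and Hspa5, were 2.59-fold and 3.42-fold higher.

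The paralogs of the endoplasmic reticulum can be set against the members without any scaling. Hspa5, the HSP70 of the endoplasmic reticulum, had 280.4 counts per 100 counts of Hspa8 in the APAP library and 71.2 in the control library, a ratio of 3.94 (3.87 to 4.02). Hsp90b1, the HSP90 of the same compartment, had 177 counts per 100 counts of Hsp90ab1 in the APAP library and 55.6 in the control library, a ratio of 3.18 (3.12 to 3.25). The reticulum form thus had more counts than the cytosolic form in the APAP library and fewer in the control library, for both families.

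**Figure D5:**
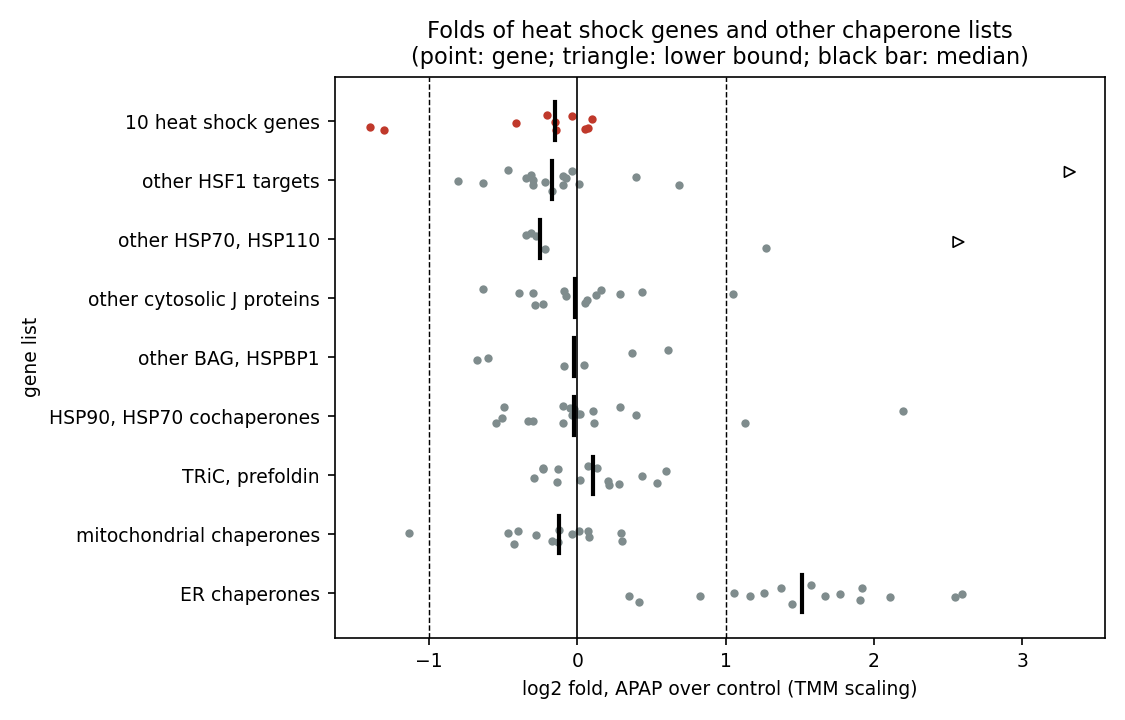
The log2 fold, APAP over control, of each gene with at least 20 counts in the 10 heat shock genes (red) and 8 lists of other chaperones (grey), with the median of each list as a black bar and genes with 0 counts in the control library as open triangles at their lower bound. The medians of the cytosolic and mitochondrial lists lie between -0.25 and 0.10, and that of the chaperones of the endoplasmic reticulum lies at 1.51.

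Early response genes, which like heat shock genes are known to be induced when tissue is dissociated, were set beside the members since both libraries came from perfused and sorted cells. Of 19 such genes, 3 were higher and 2 lower, or 6 and 2 with total counts, where 17.3% of all genes tested were higher and 4.44% lower. Klf6 was 5.93-fold, Ier3 3.20-fold and Atf3 2.05-fold higher, while Myc was 12.8-fold and Nr4a1 2.92-fold lower, and the most abundant, Jun and Zfp36, had ratios of 1.59 and 1.31. The early genes thus lay on both sides of 1 where Hspa1a and Hspa1b were lower, and the part of dissociation in these values was not tested.

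The cell type of both libraries was checked by its markers. All 12 hepatocyte markers had counts, with a summed level of 117691 CPM with APAP and 72768 CPM in control, and the albumin gene Alb stood at 45856 CPM with APAP and 29194 CPM in control. Of these 12, 3 were higher (Trf, Fgb and Ahsg) and 0 lower, beside 10.7% and 7.09% of all genes tested. With total counts 5 were higher and 0 lower, beside 17.3% and 4.44%. With TMM their log2 folds were above 0 for 7 genes and below it for 5, from Hnf4a with a ratio of 0.949 to Cps1 with 0.713. Endothelial markers, 14 of 15 with counts, summed to 35.4 CPM with APAP and 28.5 CPM in control. Of the 14 tested 6 were higher and 2 lower, beside 10.7% and 7.09% of all genes tested. With total counts 10 were higher and 0 lower, beside 17.3% and 4.44%. The most abundant of the list, Eng and Stab2, had 292 and 229 counts in the APAP library and 126 and 387 in the control library. Tie1 was lower like Stab2, with 78 counts with APAP and 146 in control. Among the 6 higher with TMM were Cdh5, with 201 counts with APAP and 25 in control, and Pecam1, the gene of CD31, with 96 and 25. Leukocyte markers, 10 of 20 with counts, summed to 6.12 CPM with APAP and 0.946 CPM in control. Of this sum Cd68 made 4.99 CPM with APAP and 0.0645 CPM in control, whereas Cd74 was 5.22-fold lower, with 9 counts in the APAP library and 38 in the control library. Cd3e and Cd79a were at 0 with APAP and had 1 and 2 counts in control. Lyz2, C1qa, Csf1r and Cd5l were at 0 in control and had 4, 4, 24 and 16 counts with APAP. Ptprc, the gene of CD45, was not among the genes with counts. Stellate cell and fibroblast markers, 12 of 14 with counts, summed to 11.2 CPM with APAP and 1.55 CPM in control, of which Reln made 9.39 CPM with APAP and 0.753 CPM in control. Col3a1 had 21 counts with APAP, Col1a1 2 and Col1a2 1, all at 0 in the control library, whereas Lox had 2 counts with APAP and 8 in control. Cholangiocyte markers, 5 of 10 with counts, summed to 51.8 CPM with APAP and 17.8 CPM in control, of which Sox9 made 24.3 CPM with APAP and 2.13 CPM in control. The summed levels of these 4 lists were thus higher in the APAP library, and so was that of the hepatocyte markers. The sums were higher by 1.62-fold for hepatocyte, 1.24-fold for endothelial, 6.47-fold for leukocyte, 7.22-fold for stellate cell and 2.91-fold for cholangiocyte markers. In this library Hspa1a and Hspa1b were lower, and Serpinh1, with 37 counts against 0 in control, was higher. Single markers lay on both sides of 1 in the hepatocyte, endothelial, leukocyte and stellate cell lists. The part of other cells in these values was not tested. In such pooled cells a loss of cells of one state and less RNA per cell cannot be told apart.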

How the data were processed

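RNA-seq counts of the 2 libraries were analysed, with totals of 51009898 for APAP and 52419864 for control. The authors deposited raw counts per Ensembl gene, without normalization, and a normalized signal, in which each count was divided by 1 size factor per library (1.12 for APAP and 0.894 for control, equal to DESeq2 1.42.0 factors computed here). Per the submitters' processing notes, HISAT2, Subread and the build mm39 were used; the sources used here give no versions, annotation, strand setting or treatment of read pairs. The library kit was Tecan's universal mRNA-seq kit, per the labels.

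Gene symbols were matched for 20679 of 20823 identifiers, and no row had 0 counts in both libraries. Totals were scaled by the TMM factors of edgeR 4.0.16 in R 4.3.3 (1.13 for APAP and 0.887 for control), so 1 count was 0.0174 CPM with APAP and 0.0215 CPM in control. Folds have the exact conditional Poisson interval (Clopper-Pearson, 95%), and ratios within a library the exact conditional interval of the odds ratio. Genes at 0 in 1 library were called on a bound against 3 counts there, and log2 folds of lists carry a prior of 0.5 counts. Intervals cover counting error only, since no molecular identifiers are named and reads are then not independent molecules; low counts (1 to 20) were mostly even, 70.6% in the APAP library and 68.3% in the control library, so intervals are too narrow if mates were counted separately. Exon and transcript lengths and shared windows came from GENCODE M21 (GRCm38). Steps ran in Python 3.11.15 (scipy 1.17.1, numpy 2.4.6, pandas 2.3.3) and were tested on simulated data.

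Members, lists and tests were chosen with earlier results of these data known. Named genes were all members, Hsf1, Alb, the 5 genes nearest to the member with the largest log2 fold in size and, per list, up to 3 called members in each direction farthest from 1 and the 2 most abundant. Some genes that this rule names are not reported here. Markers named at 0, Lox, Pecam1, Ptprc, Hsf2, Hsp90b1 and the near copies were named after their values were seen. Alternatives were 4 other scalings, no minimum or one of 100 counts, a fold of 1.5, halved counts for the interval and the sum of Hspa1a and Hspa1b.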

Additional observations from a re-analysis of the deposited data

How the results depend on the processing

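No paired analysis was possible because each group held 1 library. The number of members at least 2-fold higher stayed at 0 in all alternatives run. The number lower was 2 with DESeq2 factors, the authors' normalized signal, no minimum count, a minimum of 100, a fold of 1.5 and halved counts. It was 1 with total counts and when the 18 genes with over 1% of a library were left out of the totals, where Hspa1a was 1.94-fold lower, and 1 with Hspa1a and Hspa1b summed, where only 1 gene was left of them. The median log2 fold of the members was 0.198 by total counts and 0.194 when those 18 genes were left out, against -0.147 with TMM, because these scalings moved every log2 fold by 0.35 and 0.34. With halved counts the HSP70 ratio of 0.445 had an interval of 0.405 to 0.489 and the HSP90 ratio of 1.21 one of 1.15 to 1.26. The TMM intervals of Hsph1 and Hspb1, which excluded 1 with full counts, held 1 with halved counts (0.9997 to 1.15 and 0.799 to 1.01). With 1 library per group, depth limits only the counting error, and the spread between animals is unknown.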
